A study of Mus musculus with 6 samples.

Results

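The chemokine receptors described here are 9 genes of monocytes and effector lymphocytes, Ccr1, Ccr2, Cx3cr1, Ccrl2, Cxcr3, Cxcr6, Ccr4, Ccr8 and Cxcr4, taken by gene symbol from the 21720 symbols of an RNA-seq table of mouse tumours. All 9 passed the filter on low counts. The tumours came from H22, a mouse hepatocellular carcinoma line, injected under the skin of wild-type female BALB/c mice aged 6 to 8 weeks. The control group received the vehicle alone, 0.5% carboxymethyl cellulose sodium, and the luteolin group received 200 mg/kg luteolin, a plant flavonoid. Both were gavaged daily for 21 days from a tumour volume of about 50 mm3. Each group gave 3 libraries, and the sources do not state that each came from a separate mouse, so that p values measure only the spread between these libraries, which may be technical.

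Chemokine receptors are G protein-coupled receptors with which leukocytes sense gradients of small secreted proteins and migrate into tissue. Ccr1, Ccr2 and Cx3cr1 are carried mainly by monocytes and macrophages, and Cxcr3, Cxcr6, Ccr4 and Ccr8 mainly by effector, memory and regulatory T cells. Cxcr4 is carried by nearly all leukocytes and by many tumour cells. Ccrl2 is an atypical receptor of myeloid and endothelial cells that binds the attractant chemerin at the cell surface without the usual G protein signal.

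Total counts were 61081637 to 80442954 per library, and levels are given on the CPM scale, counts divided by the library's TMM-normalized total. Of 14963 genes tested, 11.3% were up-regulated and 1.52% down-regulated by the threshold of the study, which is an unadjusted p under 0.05 with a fold change over 2. Markers of most leukocytes were higher in the luteolin libraries. The summed level of 8 T cell markers was 11.2 to 12.3 CPM in the control libraries and 33.9 to 76.2 CPM in the luteolin libraries, with 8 of 8 markers above every control. The sum of 9 monocyte and macrophage markers was 1293 to 1560 against 1513 to 2273 CPM, so that the groups overlapped, with 6 of 9 markers above every control. Most of this sum was Lyz2 (946 to 1107 against 882 to 1461 CPM), which itself overlapped between the groups. Of all genes tested, 15.9% lay above every control. Luteolin replicate 2 stood apart by skin markers. The sum of 6 keratinocyte markers was 7934 CPM in it, 349 and 19.1 CPM in luteolin replicates 1 and 3 and 13.7 to 17.8 CPM in the control libraries. Krt14, Krt5 and Krt1 had 0 counts in every control but were detected in every luteolin library, with 277, 303 and 55 counts in luteolin replicate 3. Of the hepatoma markers, Afp was detected in every library, at 43.4 to 66.7 CPM in the control and 32.7 to 41.8 CPM in the luteolin libraries. It thus lay below every control, as did 12.8% of all genes, with a log2 fold change of -0.58 (adjusted p = 0.187 in edgeR). Ttr reached at most 24 counts.

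Among the 9 receptors, 6 were up-regulated under luteolin by the study's threshold (Ccrl2, Cxcr4, Cxcr6, Ccr1, Ccr8 and Ccr4) and 0 were down-regulated in edgeR's quasi-likelihood test. The share over all genes was 11.3%. Only Ccrl2 also had an adjusted p under 0.05, where 1.34% of all genes were called higher. In edgeR, 0 receptors had an unadjusted p under 0.05 in the lower direction, against 1 in DESeq2 and 2 in voom. The luteolin libraries lay above every control library for 4 receptors (Ccrl2, Cxcr4, Cxcr6 and Ccr8), where 15.9% of all genes did so, and below every control library for 0, where 12.8% did so. The median log2 fold change of the 9 receptors was 1.07, and that of all genes tested was -0.01. Since RNA came from whole tumour tissue, more cells of a type and more RNA per cell cannot be told apart.

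**Figure D1:**
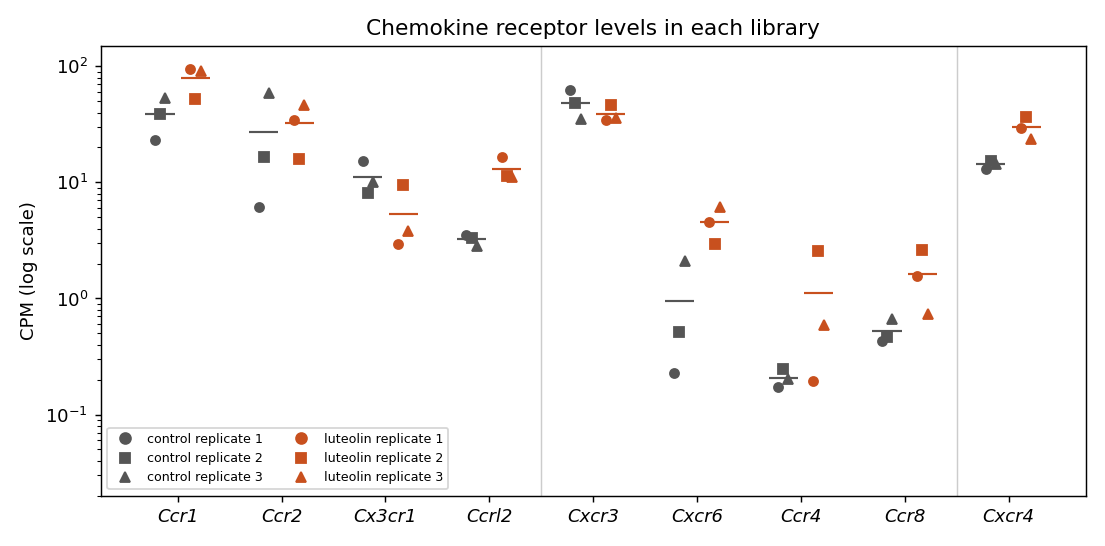
Level of each receptor in each library, in CPM on a log axis, with control libraries in grey, luteolin libraries in orange, a marker shape per replicate and the group mean as a horizontal line. Ccrl2, Cxcr4, Cxcr6 and Ccr8 show no overlap between the groups, whereas Cxcr3 lay between 34.5 and 62.2 CPM in all 6 libraries.

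Per kilobase of exon sequence the receptors differed widely in level. In the control group, the order was Cxcr3 (28.0 ± 7.79 CPM per kb), Ccr1 (13.6 ± 5.29), Cxcr4 (7.91 ± 0.597), Ccr2 (4 ± 4.09), Cx3cr1 (2.47 ± 0.826), Ccrl2 (1.24 ± 0.129), Cxcr6 (0.492 ± 0.525), Ccr8 (0.442 ± 0.109) and Ccr4 (0.0669 ± 0.0123), each the mean and SD of 3 libraries in CPM per kb. Ccr1 and Cxcr4, Cxcr4 and Ccr2, Ccr2 and Cx3cr1, and Cxcr6 and Ccr8 overlapped in range, and the other neighbours did not. In the luteolin group, Ccr1 led with 27.9 ± 8.36 CPM per kb, followed by Cxcr3 (22.5 ± 3.77), Cxcr4 (16.6 ± 3.66), Ccrl2 (5.00 ± 1.16), Ccr2 (4.80 ± 2.31), Cxcr6 (2.36 ± 0.837), Ccr8 (1.39 ± 0.794), Cx3cr1 (1.19 ± 0.780) and Ccr4 (0.361 ± 0.409 CPM per kb). There only Cxcr4 and Ccrl2 were neighbours without overlap. Ccrl2 thus stood at place 6 of 9 in the control order and at place 4 in the luteolin order, and Cx3cr1 at places 5 and 8.

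Of the 9 genes, 7 lie on chromosome 9, among them Cxcr6, Ccr1 and Ccr2 within 307 kb, while Cxcr4 is on chromosome 1 and Cxcr3 on chromosome X (GRCm38, GENCODE M21). The 250 bases before the RefSeq start of the receptors (GRCm38.p6, 9 of 9 matched) were searched on both strands for 8 motifs. These were κB (GGG and TTTCC, 2 bases apart), ISRE (GAAA and GAAA, 2 bases apart), GAS (TTCNNNGAA), PU.1 (GAGGAAGT), RUNX (TGTGGTT), the hypoxia element (GACGTG), the TATA box (TATAAA) and the GC box (GGGCGG), present in 1.41%, 2.98%, 7.02%, 2.44%, 4.4%, 5.20%, 12.4% and 32.7% of 32851 promoters, respectively. Where RefSeq gives several starts, the outermost was used. Matches were found in Cxcr4 (3 GC boxes and the TATA box, the latter as 2 overlapping matches), Ccrl2 (1 GC box and the hypoxia element) and Cxcr3 (PU.1), and none of these letters occurred in the windows of the other 6 genes. However, the gene's own annotated exons covered all 250 bases of the Cx3cr1 window, 233 of the Ccr2 window and 122 of the Cxcr3 window. The windows of the 4 up-regulated receptors that hold at most 2 bases of the gene's own exons are shown 5′ to 3′, with motif matches in capitals. They are Ccrl2 (chr9:111057519-111057768, minus strand), Cxcr4 (chr1:128592300-128592549, minus strand), Cxcr6 (chr9:123806227-123806476, plus strand) and Ccr1 (chr9:123968693-123968942, minus strand).
Ccrl2: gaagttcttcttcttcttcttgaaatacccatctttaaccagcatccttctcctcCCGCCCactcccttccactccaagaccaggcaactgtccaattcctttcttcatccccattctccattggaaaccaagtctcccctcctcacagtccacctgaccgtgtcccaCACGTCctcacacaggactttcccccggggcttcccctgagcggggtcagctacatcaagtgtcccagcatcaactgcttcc
Cxcr4: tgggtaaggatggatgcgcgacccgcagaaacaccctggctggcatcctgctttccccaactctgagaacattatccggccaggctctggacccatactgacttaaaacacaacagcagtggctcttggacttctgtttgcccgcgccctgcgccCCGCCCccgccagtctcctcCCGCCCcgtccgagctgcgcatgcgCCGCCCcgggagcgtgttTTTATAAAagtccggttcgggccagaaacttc
Cxcr6: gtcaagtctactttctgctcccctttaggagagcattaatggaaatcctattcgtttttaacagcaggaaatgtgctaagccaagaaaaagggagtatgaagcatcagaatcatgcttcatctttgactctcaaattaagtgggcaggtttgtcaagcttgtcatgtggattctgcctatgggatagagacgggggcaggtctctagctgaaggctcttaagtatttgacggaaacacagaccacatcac
Ccr1: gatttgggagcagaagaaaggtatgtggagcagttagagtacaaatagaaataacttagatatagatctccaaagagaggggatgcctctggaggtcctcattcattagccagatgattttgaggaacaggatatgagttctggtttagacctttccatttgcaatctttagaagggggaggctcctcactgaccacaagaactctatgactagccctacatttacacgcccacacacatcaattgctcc
The Cxcr4 window held 61.2% G and C with 19 CpG, against medians of 52.4% and 6 over all promoters, whereas those of Cxcr6 and Ccr1 each held 43.6% with 3 and 1 CpG.

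Ccrl2, which captures chemerin, was the receptor with the smallest p. It had 3.49, 3.35 and 2.85 CPM in control replicates 1, 2 and 3 and 16.5, 11.3 and 11.2 CPM in luteolin replicates 1, 2 and 3. The lowest luteolin library thus lay well above the highest control, with group means of 13.0 ± 3.01 and 3.23 ± 0.335 CPM (SD of 3 libraries). The log2 fold change was 2.01 with a standard error (SE) of 0.29, a fold change of 4.02, and edgeR gave an adjusted p of 0.0362. Leaving out any library kept it between 1.80 and 2.11. It was 2.11 without luteolin replicate 2, the library with the highest skin marker sum. Luteolin replicate 1, the highest library for Ccrl2, also held skin markers (349 CPM, against 13.7 to 17.8 CPM in the control libraries). Luteolin replicate 3 held Krt14 as well (277 counts, against 0 in every control). The part of skin markers in the values of Ccrl2 was not tested. The adjusted p of Ccrl2 without luteolin replicate 2 was 0.0285 in edgeR. It was 0.169, 0.217 and 0.159 without control replicates 1, 2 and 3 and 0.133 and 0.0542 without luteolin replicates 1 and 3. Without any 1 control library or luteolin replicate 1, 0 genes of all tested had an adjusted p under 0.05. The gene (chromosome 9, 111054486 to 111057519) overlaps no other annotated gene, and 0 of its 2588 windows of 50 bases occur in transcripts of other genes.

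Rarres2, which encodes chemerin, is the ligand of Ccrl2. It had 11.1, 11.4 and 17.5 CPM in control replicates 1, 2 and 3 and 338, 384 and 102 CPM in luteolin replicates 1, 2 and 3. Its up-regulation amounted to 4.36 on the log2 scale (SE 0.54, adjusted p = 0.0331 in edgeR), and the value was 4.06 without luteolin replicate 2. Cmklr1, the signalling receptor for chemerin, had 19.2 ± 4.25 CPM in the control group and 28.1 ± 5.65 CPM in the luteolin group, with a log2 fold change of 0.55 (95% interval -0.02 to 1.13).

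Cxcr4, the receptor for Cxcl12, had the smallest standard error of the 9 receptors. It had 13.1, 15.2 and 14.5 CPM in the control libraries and 29.5, 36.9 and 23.7 CPM in the luteolin libraries, without overlap between the groups. Its log2 fold change reached 1.07 (standard error 0.22), and the adjusted p was 0.0694 in edgeR. Leaving out control replicate 1 or luteolin replicate 2 gave 0.98 and 0.91, just under the fold change threshold, as did voom (0.93) and offsets for GC content and length (0.76). Its ligand gene Cxcl12 was up-regulated as well, from 12 ± 3.11 to 58.7 ± 35.5 CPM, with a log2 fold change of 2.29 (SE 0.47, adjusted p = 0.0696 in edgeR). Luteolin replicate 2 was the highest library for both genes (36.9 and 97.4 CPM). Cxcr4 (chromosome 1, 128588199 to 128592293) shares 0 windows of 50 bases with transcripts of other genes. Ackr3, the atypical receptor that removes Cxcl12, had a log2 fold change of 0.41 (95% interval -0.05 to 0.88).

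Cxcr6 marks effector and tissue-resident T cells. It had 0.229, 0.510 and 2.11 CPM in control replicates 1, 2 and 3 and 4.56, 2.93 and 6.17 CPM in luteolin replicates 1, 2 and 3. Every luteolin library lay above every control, but the control values differed among themselves by more than the gap between the groups. In edgeR the log2 fold change was 2.26, with a standard error of 0.84, a 95% interval from 0.27 to 4.25 and an adjusted p of 0.197. It was 3.62 without control replicate 3, and it no longer passed the threshold without control replicate 1 (1.79), control replicate 2 (1.96), luteolin replicate 1 (2.26) or luteolin replicate 3 (1.95). Cxcr6 (chromosome 9, 123806475 to 123811760) lies inside Fyco1 on the opposite strand, with 0 shared exon bases. The sources do not state that counting used strand, so reads from Fyco1 transcripts that were not yet spliced cannot be told apart from Cxcr6 reads. Fyco1 had 1572 to 2224 counts in the control libraries and 1807 to 3968 in the luteolin libraries. The ligand gene Cxcl16 had 56.5, 57.8 and 51.7 CPM in the control libraries and 105, 161 and 117 CPM in the luteolin libraries. Its log2 fold change was 1.2 (SE 0.20), at an adjusted p of 0.0437 in edgeR.

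Ccr4 and Ccr8, receptors of regulatory and type 2 helper T cells, were rare transcripts. Ccr4 had 12, 16 and 13 counts in the control libraries and 12, 214 and 38 counts in luteolin replicates 1, 2 and 3. Thus luteolin replicate 1 lay at the control level and replicate 2 held most of the signal. The log2 fold change of 2.43 (SE 0.98, adjusted p = 0.226 in edgeR) was 0.95 without luteolin replicate 2 and lost its call there, in voom (0.28) and without control replicate 1 (2.23), 2 (2.51) or 3 (2.41). Ccr8 had 30, 30 and 43 counts in the control libraries and 95, 217 and 47 counts in the luteolin libraries, with the lowest luteolin library just above the highest control. Its log2 fold change was 1.65 (SE 0.61, adjusted p = 0.196 in edgeR). The call was lost without control replicate 1 (1.48), control replicate 2 (1.53), luteolin replicate 1 (1.68) or luteolin replicate 2 (1.15), and with offsets for GC content and length (1.09). Luteolin replicate 2 was also the library with 7934 CPM of keratinocyte markers and the highest T cell marker sum, and their part in these values was not tested. Ccr4 lies on chromosome 9 (114490316 to 114504916), as does Ccr8 (120092114 to 120094906).

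The ligands of Ccr4 moved in opposite directions. Ccl17 had 4.55, 3.47 and 2.73 CPM in the control libraries and 0.522, 1.80 and 0.720 CPM in the luteolin libraries, and it was the only ligand down-regulated at the study's threshold (log2 fold change -1.82, standard error 0.58, adjusted p = 0.157 in edgeR). Ccl22 was up-regulated from 2.55 ± 0.259 to 8.88 ± 5.40 CPM, with a log2 fold change of 1.80 (SE 0.47, adjusted p = 0.109 in edgeR). Without luteolin replicate 2 the values were -2.51 for Ccl17 and 1.19 for Ccl22. Both ligands of Ccr8 were up-regulated. Ccl8 had 99.5, 125 and 109 CPM in the control libraries and 446, 745 and 536 CPM in the luteolin libraries, with a log2 fold change of 2.37 (SE 0.23, adjusted p = 0.0302 in edgeR). Ccl1 was rarer, at 0.25 ± 0.0436 and 1.29 ± 0.563 CPM, with a log2 fold change of 2.36 (SE 0.59, adjusted p = 0.101 in edgeR).

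Cxcr3, the receptor that brings effector T and NK cells towards interferon-induced chemokines, did not pass the test. It had 62.2, 48.2 and 35.3 CPM in control replicates 1, 2 and 3 and 34.5, 46.4 and 35.8 CPM in luteolin replicates 1, 2 and 3. The luteolin values lay within or just under the control range. Its log2 fold change of -0.32 had a 95% interval from -0.90 to 0.26, and the value lay between -0.51 and -0.13 on leaving out any library. It was -0.68 with offsets for GC content and length (unadjusted p = 0.00996, adjusted p = 0.0737 in edgeR). In voom the value was -0.44 (unadjusted p = 0.0177, adjusted p = 0.0689). Both were lower at an unadjusted p under 0.05 but still short of a fold change of 2. The ligand gene Cxcl9 was up-regulated from 54.2 ± 19.3 to 159 ± 7.77 CPM, with a log2 fold change of 1.56 (SE 0.28, adjusted p = 0.0531 in edgeR). Cxcl10 had 27.5 ± 5.71 and 30.2 ± 9.74 CPM, with a log2 fold change of 0.14 (95% interval -0.52 to 0.79). The ligand Cxcl11 was not analysed here. Cxcr3 (chromosome X, 101731535 to 101734269) shares 0 windows of 50 bases with transcripts of other genes.

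Ccr1 and Ccr2 guide monocytes, and Ccr2 is needed for their release from bone marrow. Ccr1 had 23.2, 39.2 and 53.2 CPM in the control libraries and 94.7, 51.9 and 90.8 CPM in the luteolin libraries, so that luteolin replicate 2 fell just under control replicate 3. For Ccr1 the log2 fold change was 1.04 (standard error 0.36, 95% interval 0.19 to 1.88), with an adjusted p of 0.177 in edgeR. The call was lost without control replicate 1 (0.77), control replicate 2 (1.05), luteolin replicate 1 (0.89) or luteolin replicate 3 (0.90). Ccr2 had 6.11, 16.7 and 58.4 CPM in the control libraries and 34.8, 15.8 and 46.7 CPM in the luteolin libraries. Its control values spanned the whole luteolin range, and its log2 fold change of 0.26 had a 95% interval from -1.59 to 2.12. The value was 1.51 without control replicate 3 but -0.21 without control replicate 1 and -0.12 without luteolin replicate 3, and in voom it was 1.05 and past the study's threshold.

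Both genes are poor in G and C (39.1% for Ccr1 and 39.2% for Ccr2), as is Cxcr6 (43.1%), against 48.2% to 54.2% for the other receptors, with Cxcr3 the highest. Over the 14616 genes with a known GC content, Spearman's rho between GC content and a gene's departure from its mean level was 0.43 in control replicate 1, -0.18 in control replicate 2 and -0.54 in control replicate 3. It was -0.18, 0.45 and -0.37 in the luteolin libraries. The part of this in the spread of single genes, poor or rich in G and C, was not tested. With offsets for GC content and length per library, the log2 fold changes were 1.01 for Ccr1 (SE 0.14, adjusted p = 0.0123 in edgeR), 0.50 for Ccr2 (0.45) and 2.27 for Cxcr6 (0.65). Of the 6758 windows of 50 bases in Ccr2 transcripts, 1.91% also occurred in other genes, so that its counts carry a small uncertainty. Ccr1 lies at 123962124 to 123968692 and Ccr2 at 124101950 to 124113557 on chromosome 9.

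Of the 7 ligands of Ccr1 and Ccr2, 4 were up-regulated (Ccl3, Ccl5, Ccl2 and Ccl7), where 11.3% of all genes were. Ccl5 had 5.31, 3.95 and 3.85 CPM in the control libraries and 26.2, 53.3 and 28.9 CPM in the luteolin libraries. Ccl3 had 2.62, 2.50 and 1.54 CPM in the control libraries and 22.8, 10.3 and 10.5 CPM in the luteolin libraries. Both passed an adjusted p of 0.05 in edgeR (0.0331 and 0.0437), with log2 fold changes of 3.05 and 2.71 and no overlap between the groups. Ccl2 and Ccl7, ligands of Ccr2, were up-regulated with log2 fold changes of 1.11 (standard error 0.33) and 1.16 (standard error 0.31) at adjusted p values of 0.141 and 0.114 in edgeR. Leaving out control replicate 1 or luteolin replicate 1 ended both calls, at a log2 fold change as low as 0.77 for Ccl2 and 0.91 for Ccl7, both without luteolin replicate 1. Ccl9 (log2 fold change 0.81) did not reach a fold change of 2, and the groups overlapped for Ccl6 (0.66) and Ccl12 (0.32, or -0.06 with offsets for GC content and length).

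Cx3cr1, the fractalkine receptor of patrolling monocytes and resident macrophages, had the lowest log2 fold change of the 9 receptors. It had 15.3, 8.05 and 10.0 CPM in control replicates 1, 2 and 3 and 2.92, 9.41 and 3.82 CPM in luteolin replicates 1, 2 and 3. Luteolin replicates 1 and 3 lay below every control, and replicate 2 lay among the controls. The log2 fold change of -1.04 (standard error 0.51, 95% interval -2.25 to 0.16) missed the study's threshold at an unadjusted p of 0.0794 in edgeR (adjusted p = 0.307). Without luteolin replicate 2 it was -1.71 (adjusted p = 0.0755 in edgeR) and past the study's threshold. With all libraries the gene passed that threshold in DESeq2 (-1.07, adjusted p = 0.177), in voom (-1.43, adjusted p = 0.0171) and in edgeR with offsets for GC content and length (-1.36, adjusted p = 0.0812). Its ligand gene Cx3cl1 had 2.50 ± 0.825 and 3.71 ± 3.65 CPM, and its log2 fold change was 0.57 with all libraries and -0.62 without luteolin replicate 2. The annotated span of Cx3cr1 (chromosome 9, 119901616 to 120069879) overlaps 9 other genes, and with 1 of them, Gm33858 on the opposite strand, it shares 78 exon bases, so that reads there cannot be assigned without strand.

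**Figure D2:**
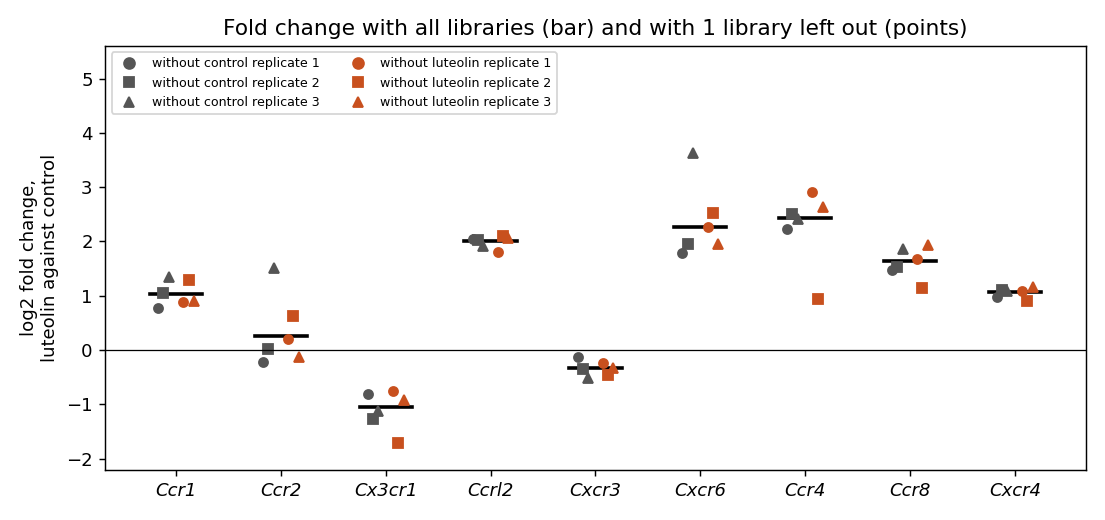
Log2 fold change of each receptor (vertical axis) with all 6 libraries as a black bar and with 1 library left out as points, grey for a control and orange for a luteolin library. Ccrl2 stayed between 1.80 and 2.11, while Ccr2 ranged from -0.21 to 1.51 and Ccr4 from 0.95 to 2.92.

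To set each receptor against a list of cell type markers, its count was divided by the summed counts of a marker list, 9 macrophage genes for Ccr1, Ccr2, Cx3cr1 and Ccrl2, 8 T cell genes for Cxcr3, Cxcr6, Ccr4 and Ccr8 and 5 leukocyte genes for Cxcr4. The ratios are of counts, not per length, and Lyz2 gave most counts of the macrophage sum. For 3 receptors the groups did not overlap, and an exact two-sided permutation test gave p = 0.1 for each, the smallest value that 3 libraries against 3 allow (adjusted p = 0.3 over 9 receptors). Cxcr3 had log2 ratios to the T cell sum of 2.43, 2.10 and 1.52 in the control libraries, against 0.03, -0.71 and -0.33 in the luteolin libraries. Cxcr3 counts were thus above the sum of all 8 T cell markers in every control library. Which cells held this RNA was not tested, so the ratio cannot be read as Cxcr3 per T cell. The mean log2 ratio was lower by 2.36 in the luteolin group, where the T cell sum was higher and Cxcr3 itself differed by -0.32. Cx3cr1 had a mean log2 ratio to the macrophage sum of -7.07 in the control and -8.66 in the luteolin group. Ccrl2 had -8.79 and -7.23 against the same sum, a difference of 1.55 in the opposite direction.

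For the other 6 receptors the groups overlapped, and among the control libraries alone the log2 ratio spanned -7.98 to -4.69 for Ccr2 and -5.33 to -2.51 for Cxcr6. The mean difference in log2 ratio was -0.14 for Cxcr4, with values from -4.05 to -3.70 in the control libraries and from -4.18 to -3.89 in the luteolin libraries. It was 0.65 for Ccr1, 0.28 for Ccr2, 0.58 for Cxcr6, -0.53 for Ccr4 and -0.66 for Ccr8, with exact permutation p values from 0.3 to 0.7. Without control replicate 1 the difference was -0.55 for Ccr2 and -0.07 for Cxcr6, and for Ccr2 it was -0.01 without luteolin replicate 1.

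**Figure D3:**
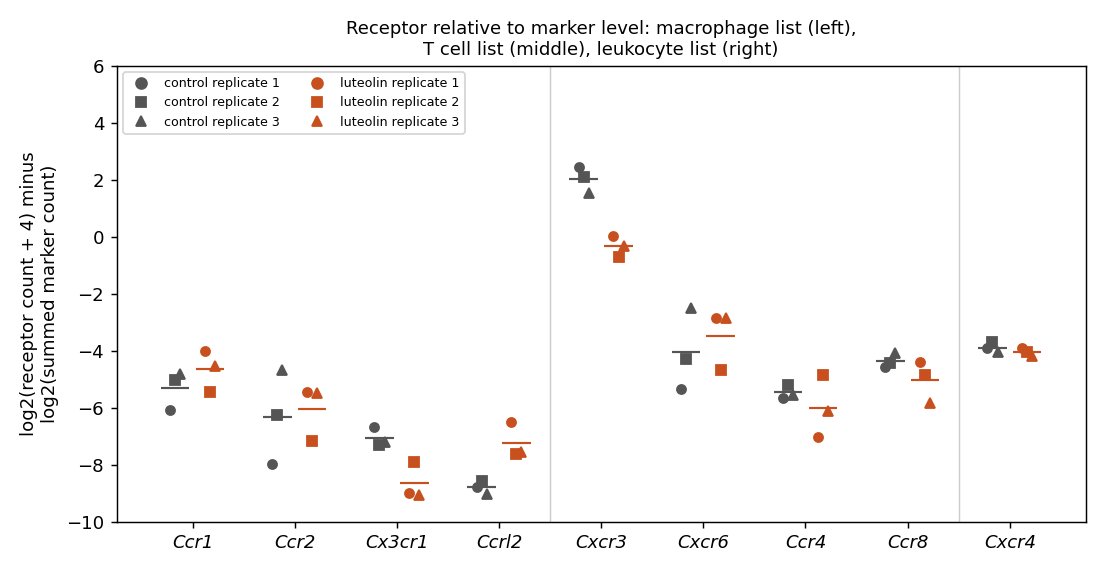
Log2 ratio of each receptor count (with 4 added) to the summed counts of its marker list (vertical axis) in each library, with control libraries in grey, luteolin libraries in orange and group means as lines. Cxcr3 and Cx3cr1 lay lower and Ccrl2 higher in every luteolin library, and Cxcr4 differed by -0.14 on average.

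Of the 18 ligand genes listed for the 9 receptors, 17 were tested. There were 11 up-regulated and 1 down-regulated at the study's threshold, where 11.3% and 1.52% of all genes were. At an adjusted p under 0.05 in edgeR, 5 were higher (Ccl3, Ccl5, Ccl8, Cxcl16 and Rarres2), where 1.34% of all genes were. The median log2 fold change was 1.2. Each of the 6 up-regulated receptors had at least 1 up-regulated ligand, but 11 of the 17 ligands were up-regulated, and a link between the calls was not tested. Cxcl9, and Ccl2 with Ccl7, were up-regulated although their receptors Cxcr3 and Ccr2 did not pass the test.

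**Figure D4:**
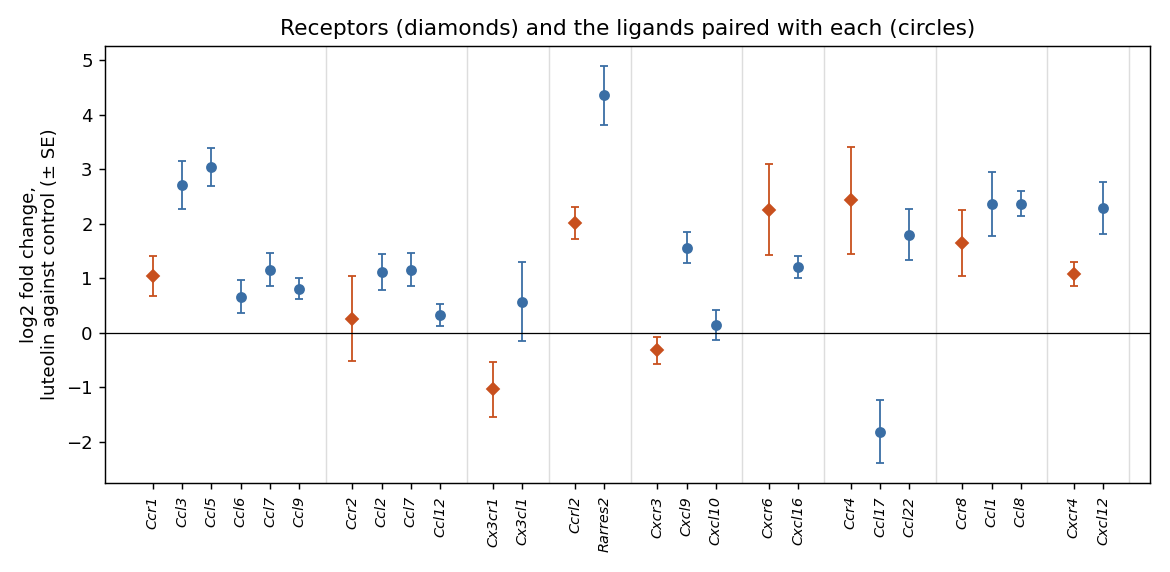
Log2 fold change with its standard error (vertical axis) for each receptor as an orange diamond and for the ligands paired with it as blue circles, with Ccl7 drawn under both of its receptors. Rarres2 had the highest value at 4.36 and Ccl17 the lowest at -1.82.

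The remaining chemokine receptors gave a comparison, and 14 of 16 were tested. By the threshold of the study 7 were up-regulated and 0 down-regulated, where 11.3% and 1.52% of all genes were. Their median log2 fold change was 1.64. At an adjusted p under 0.05 edgeR called 0, although 7 had an unadjusted p under 0.05, while DESeq2 called 5 and voom 6. Cxcr2, a neutrophil receptor, had 0.472, 0.819 and 1.12 CPM in the control libraries and 11.2, 30.9 and 4.37 CPM in the luteolin libraries. Its log2 fold change was 4.27 (SE 0.80, adjusted p = 0.0560 in edgeR) and was 3.30 without luteolin replicate 2. The summed level of 6 neutrophil markers was 17.9 to 20.1 CPM in the control libraries and 72.8 to 154 CPM in the luteolin libraries. Of these markers 3 of 6 lay above every control, against 15.9% of all genes, and Ly6g had 0 to 36 counts per library. The part of neutrophils in the result was not tested. Ccr9 and Ccr7, which guide lymphocytes and dendritic cells, had log2 fold changes of 2.66 (standard error 0.52) and 1.77 (standard error 0.53), with Ccr7 at 1.07 without luteolin replicate 2, and Xcr1 of cross-presenting dendritic cells had 2.31 (standard error 0.89). Ccr3, Ccr6, Ccr10 and Cxcr5 did not pass the test, with log2 fold changes of 0.72, 0.82, -0.22 and 0.77. Cxcr1 and Ccr1l1 were too rare to be tested, with at most 25 and 14 counts in a library. Xcr1 lost its call without control replicates 1 or 2 or luteolin replicates 1 or 2 (1.78 at the lowest).

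**Figure D5:**
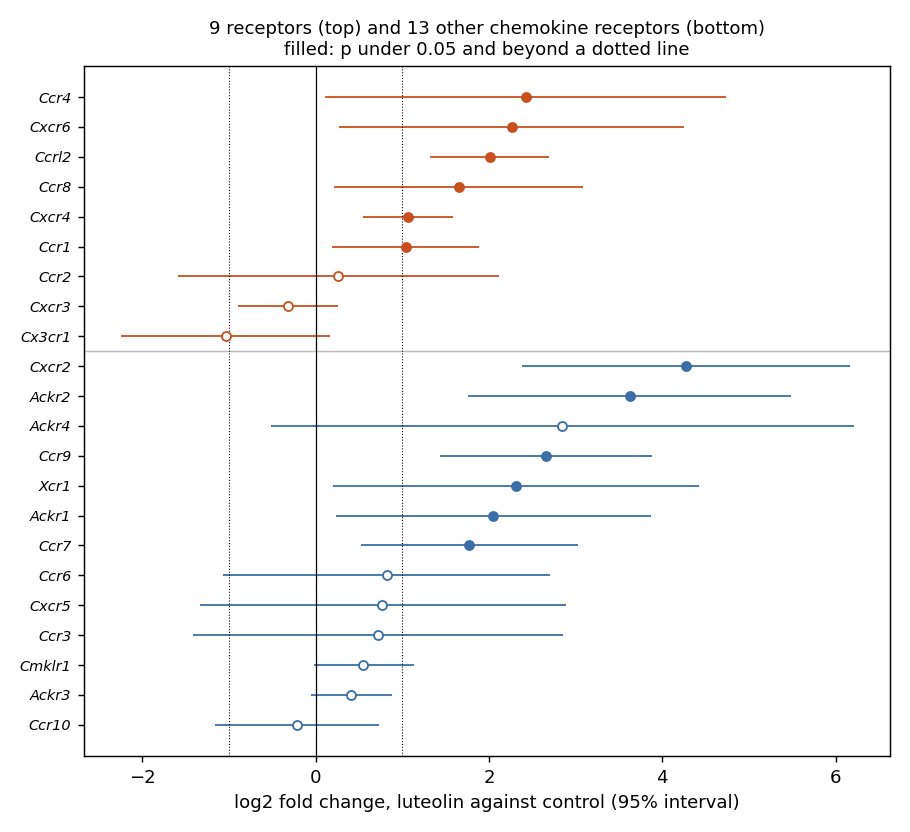
Log2 fold change with its 95% interval (horizontal axis) for the 9 receptors in orange and 13 of the 14 other chemokine receptors tested in blue, filled where the study's threshold was passed. Ccrl2 and Cxcr4 had the narrowest intervals of the receptors that passed, and Cxcr2 had the highest value at 4.27.

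Downstream of the receptors, a list of 35 genes covered G proteins, kinases, arrestins, RGS proteins and migration effectors. It had 12 members up-regulated and 0 down-regulated, where 11.3% and 1.52% of all genes were, with a median log2 fold change of 0.43. In edgeR, DESeq2 and voom, 0, 0 and 1 genes of the list had an unadjusted p under 0.05 in the lower direction. Vav1, an exchange factor for Rac in haematopoietic cells, had 15.9, 17.6 and 17.5 CPM in the control libraries and 42.9, 69.8 and 39.1 CPM in the luteolin libraries. It was the only gene of the list with an adjusted p under 0.05 in edgeR (log2 fold change 1.57, standard error 0.25, adjusted p = 0.0437). Rgs16, which shortens G protein signals, followed with 1.09, and the phosphoinositide 3-kinase γ genes Pik3r5 and Pik3cg with 1.96 and 1.13. Was, an actin regulator of leukocytes, had 1.1, and Dock2, a Rac activator needed for lymphocyte migration, had 0.99, under the fold change threshold. The widely expressed Gnai2, Gnb1, Rac1, Cdc42 and Rhoa had log2 fold changes between -0.08 and 0.19. Without luteolin replicate 2 the list held 6 up-regulated genes. Rgs16 fell short of the fold change threshold without control replicate 3 (0.98) or luteolin replicate 1 (0.86), Pik3cg without control replicate 1 (0.92) and Was without luteolin replicate 2 (0.82).

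Among the 5 genes outside these lists whose log2 CPM over the 6 libraries was most like the mean profile of the 9 receptors were Nacc2, Tnfrsf13b, Rnf130 and Scarb2, with Pearson correlations from 0.9963 to 0.9984 as a description. Each was highest in luteolin replicate 2 and lowest in control replicate 1. Nacc2 had 3.73, 4.51 and 6.02 CPM in the control libraries and 11.2, 18.4 and 10.1 CPM in the luteolin libraries.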

How the data were processed

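Tumour RNA of 3 control and 3 luteolin libraries was sequenced as paired 150-base reads. Per the labels, the authors used HISAT2, StringTie and DESeq2 and named the builds mm39 and rn6. The annotation and counting step are not given in the sources used here. The authors deposited estimated counts per gene symbol, whole numbers not scaled between libraries. Multiples of 4 made up 44.8% of values between 1 and 40, so 1 unit need not be 1 read pair, and rare genes rest on fewer pairs than their counts. The labels and the paper name different extraction and library kits. No column was left out, and labels gave the groups.

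Counts were compared in R 4.3.3 with edgeR 4.0.16 (TMM, filterByExpr, quasi-likelihood test, Benjamini-Hochberg adjustment over 14963 genes). The standard error is the log2 fold change divided by the square root of F. Alternatives were DESeq2 1.42.0, voom of limma 3.58.1 with quality weights, RLE and upper-quartile normalization, no filter, at least 10 counts in every library, division of all values by 4, offsets per library for GC content and length, a block for the replicate number and omission of each library. Scripts were tested on simulated data. Lengths and positions are from GENCODE M21 (GRCm38), not the build of the files, which hold no positions. The members and lists were chosen with earlier results of these data known. The named genes are the receptors, their ligands, the other chemokine receptors, the 6 signalling genes with the smallest p, the leading marker of each list and the 5 genes of most similar pattern. Single genes named beyond these were chosen after their values were seen. For 1 of the other chemokine receptors and 1 gene of similar pattern, values are not reported here.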

Additional observations from a re-analysis of the deposited data

How the results depend on the processing

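The 6 receptors past the study's threshold were all up-regulated. DESeq2 gave 7 (6 up and 1 down), voom 6 (5 up and 1 down, with Ccr4 and Cxcr4 lost and Ccr2 and Cx3cr1 gained) and the offsets for GC content and length 5 (4 up and 1 down). In DESeq2, voom and the offsets the receptor that was down was Cx3cr1. Values divided by 4 gave 5, with Ccr4 not tested, and the replicate number as a block gave 4, without Ccr4 (1.73) and Ccr8 (1.51). On leaving out each library the number ranged from 1 to 5, being 1 without control replicate 1, 2 without control replicate 2 and 3 without luteolin replicate 1. At an adjusted p under 0.05 there was 1 receptor in the edgeR fit, 3 in DESeq2, 5 in voom, 3 with the GC and length offsets, 0 with the replicate block and 0 to 1 with each library left out (0 in all but the fit without luteolin replicate 2). Over all genes tested, more also had an adjusted p under 0.05 in DESeq2, in voom and with these offsets than in edgeR. With the replicate block fewer did. Without any 1 control library or luteolin replicate 1, 0 genes of all tested did, so the 0 there is not particular to receptors. Whether receptors differed from other genes in this was not tested. The GC and length offsets moved the median log2 fold change of all genes to -0.24. The other receptors past the threshold numbered 4 to 7, the ligands 10 to 12 and the signalling genes 6 to 13 with each library left out, and the signalling genes 6 in voom and 4 with the GC and length offsets.

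Same-numbered libraries did not deviate together (correlations -0.20, -0.09 and 0.06 for numbers 1, 2 and 3), and control replicate 1 correlated best with luteolin replicate 2 (0.20), so the replicate number was not taken as a pairing. The block left 35 genes of all tested at an adjusted p under 0.05, against 228. For the marker ratios a sign-flip test over such pairs cannot go below 0.25.

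Signs turned for genes that passed no threshold with all libraries in edgeR, of which Ccr2 passed the study's threshold in voom (1.05) and Ackr4 without luteolin replicate 1 (3.36) or 3 (3.30). In voom the log2 fold change was -0.28 for Ccr6, -1.01 for Cxcr5, -0.45 for Ackr4, -0.26 for Cxcl10 and -0.46 for Cx3cl1, and with the GC and length offsets -0.06 for Ccl12, -0.16 for Cxcl10 and -0.12 for Siglecf, which was -0.10 with the block. With each library left out it ranged from -0.21 to 1.51 for Ccr2, from -0.24 to 1.53 for Ccr3, from -0.15 to 1.13 for Ccr6, from -0.56 to 1.2 for Cxcr5, from -0.63 to 3.36 for Ackr4, from -0.13 to 0.29 for Cxcl10, from -0.62 to 0.97 for Cx3cl1 and from -0.66 to 0.43 for Siglecf. The ratio of Ccr2 to macrophage markers differed by -0.11 with their geometric mean and by -0.55 to 1.1 with each library left out, and that of Cxcr6 to T cell markers by -0.07 to 1.35. The cause was not tested. Low counts limit Ccr4, Ccr8 and Cxcr6, and 0 counts allow up to 3 counts, or 12 where 1 pair counts as 4, for counting error only.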

Other observations

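Among the atypical receptors, which take up chemokines without migration, Ackr2 had 8, 4 and 4 counts in the control libraries and 100, 83 and 25 counts in luteolin replicates 1, 2 and 3, and its log2 fold change was 3.63 with an adjusted p of 0.0776 in edgeR. Ackr1 of venules had 0.621 ± 0.164 and 2.58 ± 2.51 CPM, with a log2 fold change of 2.05 that was 0.88 without luteolin replicate 2 and then short of the threshold, as it was without any control library. Ackr4 had 857 of its counts in luteolin replicate 2, against 12 to 44 in the other libraries.

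Markers of further cell types also differed between the groups. The summed level of 4 regulatory T cell markers was 6.30 to 8.88 CPM in the control libraries and 22.7 to 43.7 CPM in the luteolin libraries, and that of 4 NK cell markers 2.32 to 5.6 against 13.6 to 14.9 CPM, where Klrd1 had 0 counts in every control. Mast cell markers summed to 7.18 to 11.0 against 24.1 to 72.6 CPM (5 of 5 above every control, against 15.9% of all genes) and B cell markers to 2.52 to 4.71 against 6.63 to 24.0 CPM (2 of 4). Dendritic cell markers summed to 118 to 130 against 177 to 280 CPM (3 of 6), of which Itgax alone had 86 to 90.4 against 134 to 252 CPM. Zbtb46, Clec9a and Cd209a overlapped between the groups, with log2 fold changes of -0.33, 0.51 and 2.50. The sum of 5 leukocyte markers was 199 to 241 against 429 to 602 CPM (4 of 5), that of 4 fibroblast markers 436 to 586 against 804 to 2026 CPM (4 of 4). Endothelial markers (75.1 to 93.9 against 91.6 to 236 CPM), hepatoma markers (271 to 381 against 262 to 405 CPM) and eosinophil markers, with Epx at 0 counts in every library, overlapped between the groups.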
